A study of Mus musculus with 11 samples.

Results

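The genes for the proteins of the cytosolic ribosome were followed in whole liver of *ob/ob* mice with diet-induced steatohepatitis, by name: symbols of the *Rpl* and *Rps* series, with *Rplp0* to *Rplp2* and *Rpsa*, and without pseudogenes. This gave 80 of the 46603 genes in the count table, 49 of the large and 31 of the small ribosomal subunit. All 11 mice were male Lep ob/ob animals (B6.V-Lep ob/JRj), which make no functional leptin and become obese. They were 5–6 weeks old when they were put on the AMLN diet, which is high in fat, cholesterol and fructose, and had eaten it for 15 weeks when treatment began. Before treatment, mice of the study had a biopsy of the left lateral liver lobe and were included by steatosis and fibrosis scores. INT-767 is a semi-synthetic agonist of the bile acid receptors FXR and TGR5. Of the sequenced mice, 4 received it by gavage at 10 mg/kg once daily for 8 weeks, and 7 received vehicle. The study's groups for histology were larger, and how the sequenced mice were chosen is not stated. Both sequenced groups carried the same leptin mutation and stayed on the same diet, and no lean or chow-fed liver was among the samples. RNA came from the left lateral lobe and was enriched for polyadenylated transcripts. Total counts were between 7381211 and 16022459 per mouse. The labels do not give a batch, and differences between the groups are therefore set against the spread between mice alone.

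Each cytosolic ribosome is built from a small subunit that decodes the mRNA and a large subunit that forms the peptide bond, with 1 copy of nearly every protein for each rRNA set. The mRNAs of these proteins are short, abundant in every cell, and begin with an oligopyrimidine tract at the cap through which mTORC1 and the RNA binding protein Larp1 set their translation. Hepatocytes, which secrete most plasma proteins, depend heavily on this machinery. Because these genes are expressed evenly in many settings, several of them (*Rpl13a*, *Rplp0*, *Rps18*) serve as reference genes in PCR.

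Start sites of the members were examined in RefSeq promoter windows (GRCm38.p6, 250 bases before to 50 after the annotated start), which held 60 of the 80 members by symbol. A run of at least 6 C or T bases lay within 5 bases of an annotated start in 31 of these 60 (51.7%), against 23.0% of all 27025 symbols in the RefSeq set. The run covered the start base itself in 19 members (31.7%), against 8.48% of all symbols. The letters CCGGAAG, searched on both strands of the whole window, were found in 25 members (41.7%) and in 9.93% of all symbols. AAGATGGCG was found in 3 members, *Rpl13a*, *Rpl35a* and *Rps27* (5% against 1.64%), and TATAAA in 6 (10% against 15.7%), both on either strand. CCGGAAG and AAGATGGCG can share bases where one follows the other, and a pyrimidine run can share bases with either on the opposite strand, and such overlaps were not removed. These matches are descriptions of sequence and not binding sites.

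The 30 bases around the start are shown for members among the 3 largest and the 3 smallest fold changes of each subunit, to let their starts be compared. *Rps27a* and *Rps14*, also among the largest, are named only. Base 16 is the annotated start, capitals mark the pyrimidine run, and the RefSeq start with the longer run is given where there are several. The windows were read 5′ to 3′ from GRCm38.p6.
Rps7, chr12:28635939-28635968, minus strand: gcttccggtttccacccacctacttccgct
Rpl13a, chr7:45128731-45128760, minus strand: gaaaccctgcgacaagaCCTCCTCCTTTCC
Rpl34, chr3:130730323-130730352, minus strand: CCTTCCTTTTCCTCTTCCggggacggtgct
Rpl22, chr4:152325711-152325740, plus strand: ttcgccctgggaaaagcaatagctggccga
Rps28, chr17:33824548-33824577, minus strand: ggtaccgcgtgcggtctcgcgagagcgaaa
Rps4x, chrX:102189377-102189406, minus strand: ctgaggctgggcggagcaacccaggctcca
Rps2, chr17:24720048-24720077, plus strand: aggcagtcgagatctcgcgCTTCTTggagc
Rpl6, chr5:121204486-121204515, plus strand: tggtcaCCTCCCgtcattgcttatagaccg
Rpl18, chr7:45718056-45718085, plus strand: tgcgtctcgcaggccgCTCTTTCCCCgccc
Rpl36a, chrX:134585639-134585668, plus strand: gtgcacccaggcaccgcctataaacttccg
*Rpl13a*, with one of the largest fold changes, and *Rpl18*, with one of the smallest, both have a long pyrimidine run just downstream of the start. Among tested members the median log2 fold change was 0.29 for the 30 with a run within 5 bases and 0.40 for the 26 without one.

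Of the 80 members, 76 had enough counts to be tested (45 large, 31 small), between 1241 counts over all mice for *Rpl23a* and 67289 for *Rpl13a*. The other 4 are all of the large subunit. *Rpl10l*, a testis paralog of *Rpl10*, had 0 counts in every mouse. Without scaling factors this allows at most between 0.187 and 0.406 counts per 1000000 counts, depending on the mouse. Below, CPM are counts per 1000000 counts of the scaled library unless stated otherwise. *Rpl39l* had 5 counts in 3 mice and *Rpl3l*, the striated muscle paralog of *Rpl3*, had 10 counts in 7 mice. *Rpl24* had only 58 counts over the 11 mice. Of its 75-base windows, the length of a read, 68.2% are also found in the overlapping gene model *Gm28037*, and how the counting treated reads shared by both is not given in the sources. The paralog *Rps4l* is not a row of the table by that name.

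Sequence shared with other genes was common among the members. The median member shared 46.9% of its 75-base windows with another gene, mostly processed pseudogenes, and *Rps27* shared 98.5% with its retrogene *Rps27rt*. Levels of such members are uncertain where the counting could split or discard reads. The 14 tested members with at most 20% of windows shared had a median log2 fold change of 0.41, and the other 62 a median of 0.37. Exons of 6 members overlapped genes of the opposite strand over more than 20% of their length, and without the strand setting reads of both genes cannot be told apart there. Of the 17 rows named as ribosomal protein pseudogenes, 1 had enough counts to be tested (*Rpl9-ps6*, log2 fold change −0.04 ± 0.45 SE).

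The members together held a small part of the mRNA counts. Their share was 1.54%, 1.08%, 1.18%, 1.06%, 1.02%, 1.10% and 1.59% in vehicle mice 1 to 7, and 1.35%, 1.41%, 1.23% and 1.72% in INT-767–treated mice 1 to 4. INT-767–treated mouse 4 had the highest share of all, but vehicle mice 1 and 7 were higher than the other 3 treated mice, so that the groups overlapped. The mean share of the 7 vehicle mice was 1.22% ± 0.24 (SD), and that of the 4 treated mice was 1.43% ± 0.21 (SD).

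Scaling changed the size of this difference. As CPM with edgeR's TMM factors, which set the bulk of genes equal between mice, the summed level was 11634 ± 2384 with vehicle and 15774 ± 3244 with INT-767 (SD), a ratio of 1.36. Divided by the library size alone the ratio was 1.17. The TMM factors were between 0.97 and 1.14 in the vehicle mice and between 0.84 and 0.98 in the treated mice, so that TMM raised the treated mice relative to the others.

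**Figure D1:**
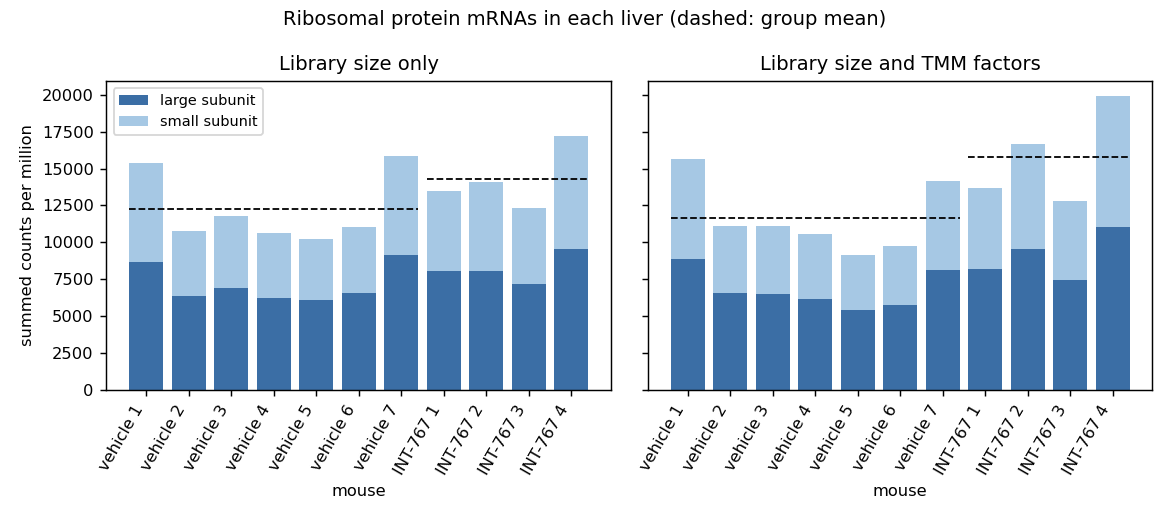
Summed CPM of the 80 ribosomal protein genes in each of the 11 livers, stacked by subunit, with library size only (left) and with TMM factors (right). Dashed lines are group means. Vehicle mice 1 and 7 reach the range of the treated mice under both scalings, and the gap between the means is wider with TMM (ratio 1.36) than without (1.17).

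The sums were also taken for each subunit. Large-subunit mRNAs summed to 6771 ± 1256 CPM with vehicle and 9055 ± 1586 CPM with INT-767. Small-subunit mRNAs summed to 4864 ± 1130 and 6719 ± 1667 CPM. The ratio of large to small was 1.40 ± 0.06 with vehicle and 1.37 ± 0.10 with INT-767, and did not differ beyond the spread between mice.

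No ribosomal protein gene passed the test between INT-767 and vehicle. In edgeR's quasi-likelihood test over 13880 genes with Benjamini-Hochberg adjustment, 0 of 45 large-subunit and 0 of 31 small-subunit members had an adjusted p under 0.05, while 5.04% of all tested genes were called higher and 4.68% lower (9.72% in all). With TMM factors the log2 fold change was above 0 in 75 of 76 members, against 49.4% of all tested genes. It was above 0 in 55 of 76 with library size only, against 34.4% of all tested genes, and in 61 of 76 with an offset for GC content and transcript length, against 50.9%. At an unadjusted p under 0.05, 30 members were higher (20 large, 10 small) and 0 lower, where all tested genes gave 17.4% and 15.6%. The median log2 fold change was 0.37 for the large subunit, 0.37 for the small subunit and −0.01 for all tested genes. Without INT-767–treated mouse 4 these medians were 0.28, 0.24 and −0.02.

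The count of 0 depended on single mice and on the tool. Without vehicle mouse 1, 24 members were called higher (14 large, 10 small), while the share of all genes called higher also grew, to 13.7%. Without vehicle mouse 7 or without INT-767–treated mouse 3, only *Rps25* was called, where 4.52% and 5.50% of all genes were called higher. DESeq2 called 12 members higher where it called 10.4% of all genes, and limma-voom with sample weights called 23 where it called 11.9%. No member was called lower in any of the 27 alternative fits.

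**Figure D2:**
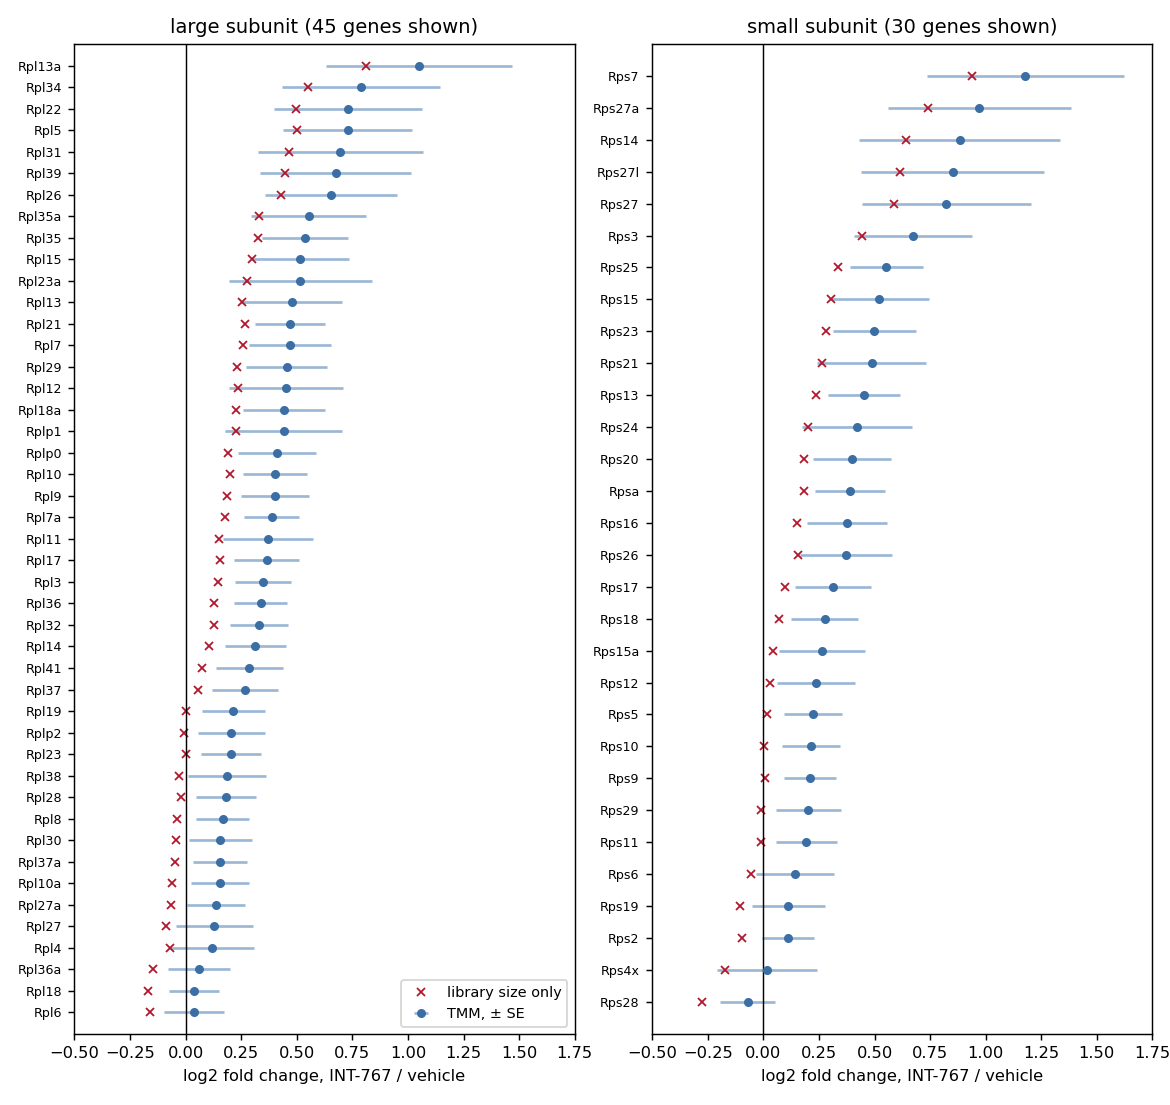
Log2 fold change, INT-767 over vehicle, of 75 of the 76 tested ribosomal protein genes, by subunit. Circles with bars are edgeR estimates ± SE with TMM factors, and crosses are estimates with library size only. With TMM only *Rps28* lies below 0, and with library size only 55 of 76 members stay above 0, where 34.4% of all tested genes do.

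The 3 small-subunit members with the largest fold changes were *Rps7*, *Rps27a* and *Rps14*. *Rps7* (chr12:28630854-28635953 in GRCm38, minus strand, 7 exons) encodes a small-subunit protein that also binds the p53 regulator Mdm2. Its level was 317, 124, 111, 104, 81.7, 94.1 and 226 CPM in vehicle mice 1 to 7, and 162, 359, 178 and 670 CPM in INT-767–treated mice 1 to 4. Vehicle mice 1 and 7 and treated mice 2 and 4 were high, and treated mice 1 and 3 lay between vehicle mice 2 and 7. The log2 fold change was 1.18 ± 0.44 (SE), with an adjusted p of 0.0957 in edgeR's quasi-likelihood test, and fell to 0.62 without treated mouse 4.

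*Rps27a*, which encodes ubiquitin fused to a small-subunit protein, was high in the same mice. It stood at 508, 211, 170, 166, 138, 146 and 355 CPM with vehicle and at 262, 481, 284 and 870 CPM with INT-767 (log2 fold change 0.97 ± 0.41 SE, edgeR adjusted p = 0.128, and 0.50 without treated mouse 4). For *Rps14*, the gene lost in human 5q− syndrome, the values were 455, 184, 171, 174, 134, 128 and 357 CPM with vehicle and 200, 402, 203 and 884 CPM with INT-767 (0.88 ± 0.45 SE, edgeR adjusted p = 0.186, and 0.22 without treated mouse 4). In both genes the groups overlapped because of vehicle mice 1 and 7.

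In the large subunit *Rpl13a*, *Rpl34* and *Rpl22* had the largest fold changes. *Rpl13a* (chr7:45125558-45128761, minus strand, 8 exons) was at 709, 326, 308, 262, 241, 224 and 579 CPM with vehicle and at 435, 727, 372 and 1598 CPM with INT-767. Its log2 fold change was 1.05 ± 0.42 (SE, edgeR adjusted p = 0.110), and 0.43 without treated mouse 4, the mouse with the highest level. *Rpl13a* varied 3.16-fold among the vehicle livers alone, although it is a common reference gene. *Rplp0* and *Rps18*, also used as references, ranged from 233 to 372 and from 116 to 181 CPM among the vehicle livers, with log2 fold changes of 0.41 ± 0.18 and 0.28 ± 0.15 (SE).

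*Rpl34* ranged from 85.7 to 231 CPM with vehicle (median 113) and was 121, 256, 152 and 412 CPM with INT-767 (0.79 ± 0.36 SE, and 0.36 without treated mouse 4). *Rpl22*, an RNA binding protein of the large subunit, ranged from 103 to 266 CPM with vehicle (median 121) and was 142, 270, 163 and 424 CPM with INT-767 (0.73 ± 0.33 SE, and 0.34 without treated mouse 4). Its paralog *Rpl22l1*, outside the naming rule, was at 40.6 ± 27.6 CPM with vehicle and 78.3 ± 43.1 CPM with INT-767 (SD). In all 3 genes treated mouse 4 was highest and the groups overlapped.

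At the other end, some members hardly differed between mice. *Rps28* (chr17:33819027-33824562, minus strand, 4 exons) was at 51.4, 41.6, 49.1, 49.1, 40.0, 40.5 and 46.9 CPM with vehicle and at 45.4, 44.0, 43.7 and 40.0 CPM with INT-767. It was the only tested member with a fold change below 0 (log2 −0.07 ± 0.12 SE). *Rps2* was between 231 and 278 CPM with vehicle (median 267) and at 298, 293, 268 and 259 CPM with INT-767 (0.11 ± 0.12 SE). The groups overlapped for both genes, with treated mice 1 and 2 above every vehicle mouse for *Rps2*.

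*Rpl18* was between 81.5 and 98.5 CPM with vehicle (median 93.3) and at 95.6, 99.9, 94.2 and 86.4 CPM with INT-767 (0.04 ± 0.11 SE). *Rpl6* and *Rpl36a* had log2 fold changes of 0.04 ± 0.14 and 0.06 ± 0.14 (SE). *Rps4x*, the X-linked form of a small-subunit protein, differed from these in its spread among treated mice. It stood at 210, 152, 164 and 73.8 CPM with INT-767, against 122 to 175 CPM with vehicle (0.02 ± 0.23 SE, and 0.24 without treated mouse 4), so that treated mouse 4, high for *Rps7*, was the lowest of all for *Rps4x*. The direction of *Rpl6*, *Rpl18*, *Rpl36a*, *Rps2* and *Rps4x* turned negative with library size only (−0.16, −0.17, −0.15, −0.10 and −0.17). That scaling lowered genes in general, with a median over all tested genes of −0.22, against −0.01 with TMM.

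**Figure D3:**
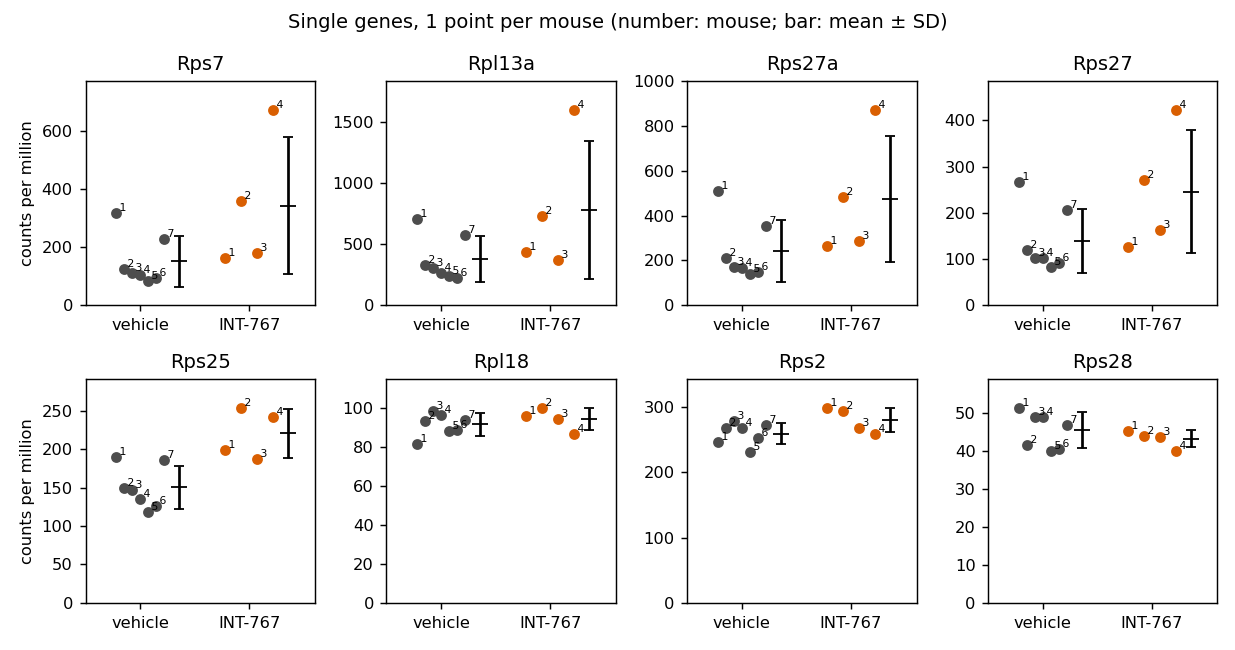
CPM (TMM) of 8 members in each mouse, with the mouse number beside each point and the group mean ± SD. In the upper row vehicle mice 1 and 7 and treated mice 2 and 4 stand above the others. *Rps25*, with the lowest adjusted p, overlaps only through vehicle mouse 1, and *Rpl18*, *Rps2* and *Rps28* are nearly level.

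The members with the lowest adjusted p are given next, chosen after their values were seen. *Rps25*, a small-subunit protein used in internal ribosome entry (chr9:44407139-44410427, plus strand, 5 exons), was at 189, 150, 147, 135, 119, 126 and 186 CPM with vehicle and at 199, 254, 187 and 242 CPM with INT-767. Only vehicle mouse 1 lay above the lowest treated mouse, number 3. The log2 fold change was 0.55 ± 0.16 (SE), with an adjusted p of 0.0515 in edgeR's quasi-likelihood test. Part of its exons (24.8%) overlaps *Ccdc84* and *Trappc4* on the opposite strand. *Rpl21* was between 137 and 231 CPM with vehicle (median 170) and at 254, 275, 224 and 230 CPM with INT-767. Its groups overlapped, and its log2 fold change was 0.47 ± 0.16 (SE, edgeR adjusted p = 0.0719).

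Only *Rpl7a* and *Rpl36* had groups that did not overlap, 2 of 76 members, where 3.87% of all tested genes had every treated mouse above every vehicle mouse and 3.65% the reverse. *Rpl7a* was between 203 and 260 CPM with vehicle (median 225) and at 308, 299, 260 and 313 CPM with INT-767. Its lowest treated and highest vehicle values agree to the last printed digit, and its log2 fold change was 0.39 ± 0.12 (SE, edgeR adjusted p = 0.0648). *Rpl36* was between 82.6 and 111 CPM with vehicle (median 102) and at 123, 129, 121 and 125 CPM with INT-767 (0.34 ± 0.12 SE, edgeR adjusted p = 0.0836). *Rpl3*, which lines the peptidyl transferase center, and *Rpl10*, added late in assembly at the subunit interface, had log2 fold changes of 0.35 ± 0.12 and 0.40 ± 0.14 (SE).

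Per kilobase of transcript, the mean level over all mice was highest for *Rplp1*, at 902 CPM per kb. *Rps15* followed at 543, *Rps27* at 514, *Rpl13a* at 502 and *Rps14* at 501 CPM per kb, and the median member stood at 181 CPM per kb. *Rplp1* forms, with *Rplp2* and *Rplp0*, the stalk that recruits elongation factors. It was between 264 and 678 CPM with vehicle (median 348) and at 448, 590, 405 and 721 CPM with INT-767 (log2 fold change 0.44 ± 0.26 SE). *Rplp2*, at 189 CPM per kb, had a log2 fold change of 0.21 ± 0.15 (SE), which was −0.01 with library size only. Without treated mouse 4 the values were 0.27 for *Rplp1* and 0.09 for *Rplp2*. *Rpsa*, a small-subunit protein also known as the laminin receptor precursor, was between 141 and 235 CPM with vehicle (median 165) and at 238, 254, 202 and 217 CPM with INT-767 (0.39 ± 0.16 SE). None of these genes passed the test.

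*Rps27l*, a p53-induced paralog of *Rps27*, was at 325, 130, 119, 122, 91.7, 98.4 and 218 CPM with vehicle and at 133, 314, 167 and 523 CPM with INT-767 (0.85 ± 0.41 SE). *Rps27* itself was between 83.7 and 266 CPM with vehicle (median 103) and at 126, 271, 162 and 422 CPM with INT-767 (0.82 ± 0.38 SE). Paralog and parent were thus high in the same mice, and without treated mouse 4 their log2 fold changes were 0.37 and 0.42. *Rpl39*, a short protein at the exit tunnel, was between 33.0 and 92.4 CPM with vehicle (median 43.5) and at 52.3, 79.0, 58.2 and 140.0 CPM with INT-767. Its log2 fold change was 0.67 ± 0.34 (SE), and 0.28 without treated mouse 4. *Rpl41*, the shortest ribosomal protein, had a log2 fold change of 0.29 ± 0.15 (SE).

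The spread among the vehicle mice differed widely between members. The highest vehicle level was up to 3.88 times the lowest (*Rps7*), with a median of 1.65. The members that spread most among vehicle mice also had the larger fold changes with INT-767 (Spearman's rho 0.83 across 76 members, a description only, since the members share libraries and the fold change contains the vehicle values). The spread within the treated group followed that within the vehicle group (rho 0.74). Vehicle mouse 1 was the highest vehicle mouse for 51 members and vehicle mouse 5 the lowest for 60. Treated mouse 4 was the highest of all 11 mice for 40 members, treated mouse 1 for 16, treated mouse 2 for 15, vehicle mouse 1 for 4 and vehicle mouse 7 for 1.

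**Figure D4:**
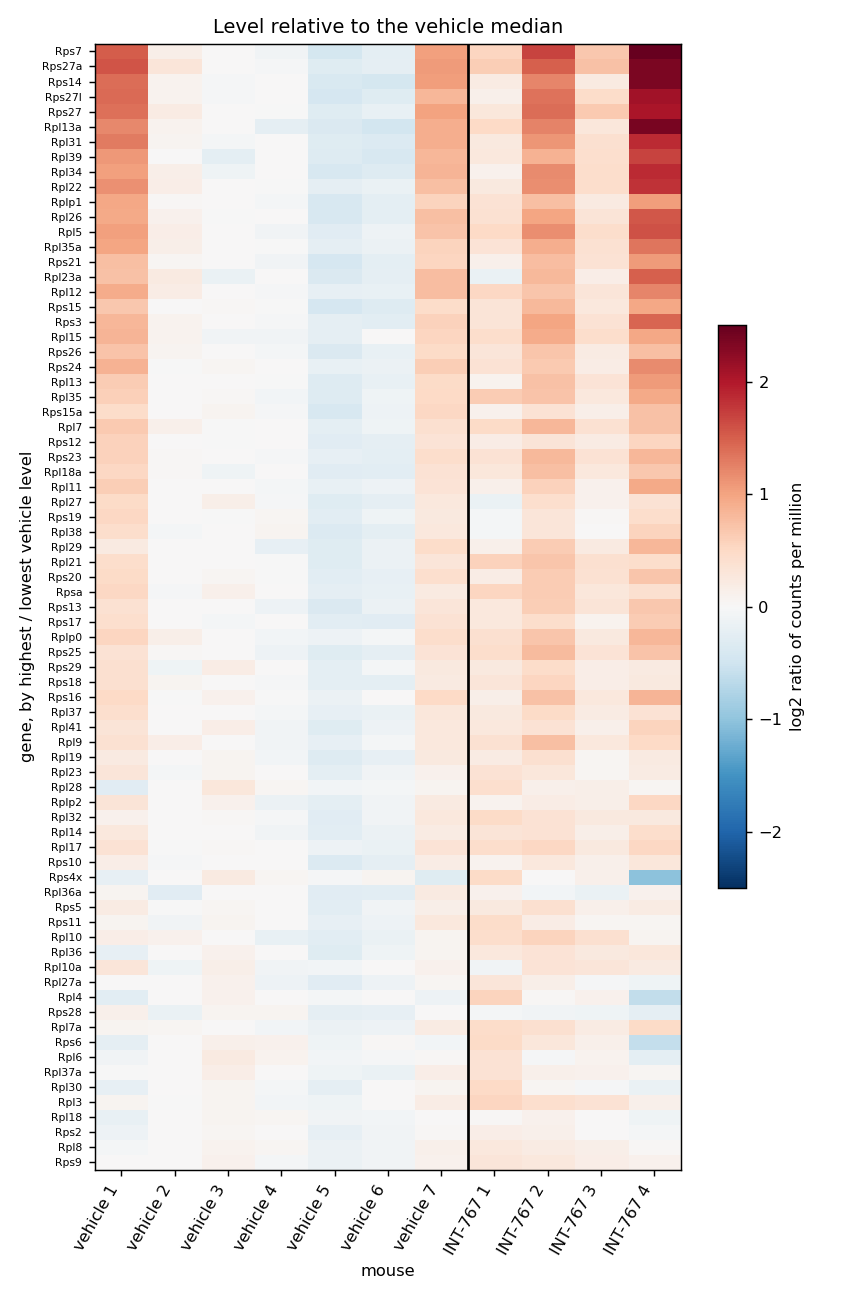
Level of 75 of the 76 tested members in each mouse as the log2 ratio to the vehicle median, ordered by the ratio of the highest to the lowest vehicle level. The upper rows, from *Rps7* to *Rpl22*, are high in vehicle mice 1 and 7 and treated mice 2 and 4, while the lowest rows, such as *Rps2* and *Rpl18*, vary little.

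The same 4 mice stood apart across the transcriptome by transcript length, and the mice also differed by GC content. For each mouse, Spearman's rho was taken between the length of a gene's transcript and its level relative to the gene's mean over the mice (13835 genes, a description). It was −0.21, 0.30, 0.14, 0.24, 0.33, 0.33 and −0.24 in vehicle mice 1 to 7, and 0.16, −0.32, 0.09 and −0.34 in treated mice 1 to 4. Short transcripts were thus relatively high in vehicle mice 1 and 7 and in treated mice 2 and 4. The same measure against the GC content of the transcript was −0.42, 0.00, 0.44, 0.33, 0.35, 0.29 and −0.12 in vehicle mice 1 to 7, and −0.07, −0.25, −0.16 and −0.23 in treated mice 1 to 4. It was below 0 in all treated mice and in vehicle mice 1 and 7. The tested members are short, with a median transcript of 795 bases against 2825 for all tested genes, but within the members fold change and length showed little relation (rho 0.08), and rho with GC content was −0.22.

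Mice of both groups had either sign of this trend, and the comparison was repeated within each sign, a split made after the data were seen. The sign separates the mice that were high for members such as *Rps7* from the others, so that the split itself narrows the vehicle range of such members, and its counts support nothing. Among the mice with a positive trend, 5 vehicle against 2 INT-767, the median log2 fold change of the members was 0.34. There 12 members were called higher (8 large, 4 small) where 5.96% of all genes were. Among the mice with a negative trend, 2 against 2, the median was 0.13 and no member was called, where 0.959% of all genes were called higher. With the trend as a term over all mice the median was 0.18, with 71 of 76 members above 0 and none called, where 5.11% of all genes were called higher.

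Fold changes over all tested genes followed GC content (rho −0.28) and transcript length (rho −0.26), both as descriptions across genes of the same libraries. By length, the median log2 fold change of the other genes was 0.23 for transcripts of up to 500 bases, 0.37 for 500 to 750 and 0.24 for 750 to 1000, and it was −0.11 for 3000 to 5000 and −0.30 for more than 5000 bases. Members in the first 3 of these length ranges had medians of 0.39 (14 genes), 0.30 (18) and 0.25 (20). The 14 members of 1000 to 1500 bases had a median of 0.39, where the other genes of that length had 0.18. With TMM, members of up to 500 bases thus lay above other genes of their length, those of 500 to 750 bases below them, and those of 750 to 1000 bases close to them.

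Library scaling moved all genes together and left the distance between members and the rest in place. With library size only, the median was 0.15 for the members and −0.22 for all tested genes, and no member was called, where 2.39% of all genes were called higher. Upper-quartile factors gave 0.28 and −0.09, RLE factors 0.38 and −0.00, and TMM factors computed without the members 0.38 and −0.01. The difference between the members' median and the median of all genes was 0.38 with TMM, 0.37 with library size only and 0.38 with upper-quartile factors. When an offset took out how each library's levels depended on length and GC content, the members' median was 0.19, that of all genes 0.01, and the difference 0.18. *Rps25* (0.46, adjusted p = 0.0313 in edgeR's quasi-likelihood test) and *Rpl21* (0.44, 0.0489) were called higher there, where 7.80% of all genes were.

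**Figure D5:**
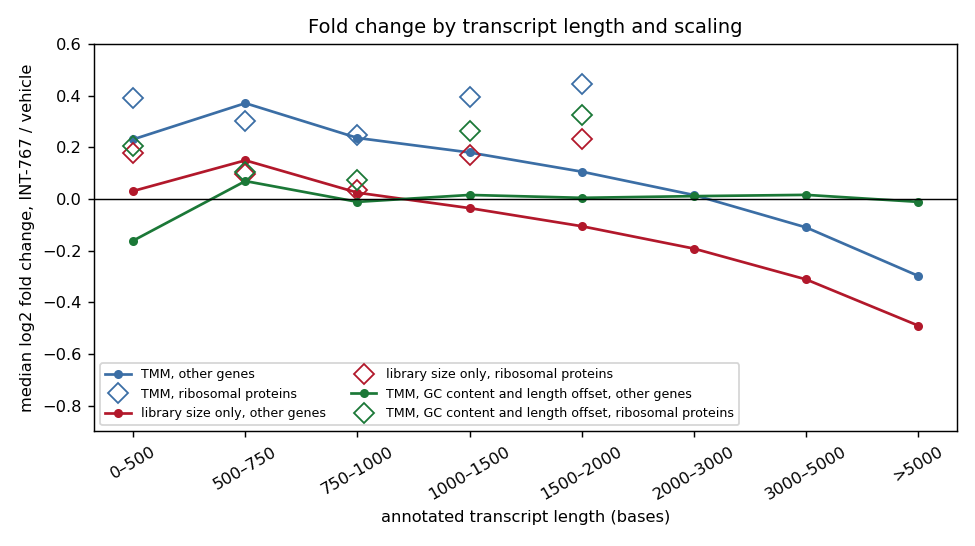
Median log2 fold change, INT-767 over vehicle, by transcript length under 3 scalings. Lines with dots are genes other than the members, and diamonds are ribosomal protein genes in ranges with at least 6 of them. TMM and library size only give parallel lines that rise up to the 500–750 range and fall with length beyond it, the offset gives a line near 0 except for the shortest transcripts (−0.16), and the diamonds of the shortest, 1000–1500 and 1500–2000 ranges lie above the line of their own scaling. For the shortest range the offset gives 0.20 for the members and −0.16 for the other genes.

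Other genes of the translation machinery were compared in the same fit. Of 31 translation initiation factors, 1 was called higher and 0 lower, where 5.04% and 4.68% of all tested genes were. Their median log2 fold change was 0.15 with TMM, −0.06 with library size only and 0.09 with the GC content and length offset. The called gene was *Eif3j1*, a subunit associated with the initiation factor eIF3, at 20.5 ± 7.0 CPM with vehicle and 39.6 ± 12.6 CPM with INT-767 (SD; log2 0.95 ± 0.26 SE, edgeR adjusted p = 0.0381). Of 12 elongation factors and other genes known for an oligopyrimidine start, none was called, where 9.72% of all tested genes were. The median of these 12 was 0.21 with TMM, 0.01 with library size only and 0.23 with the offset. The medians of all tested genes under these scalings were −0.01, −0.22 and 0.01, so that library size only lowers these lists about as much as all genes. Among them *Tpt1*, a translationally controlled protein, stood at 539 ± 183 CPM with vehicle and 898 ± 257 CPM with INT-767 (SD; 0.74 ± 0.25 SE, edgeR adjusted p = 0.0785). *Eef1b2*, an exchange factor for elongation factor 1, had a log2 fold change of 0.52 ± 0.22 (SE).

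The genes that make and control ribosomes had medians at or below 0 with TMM. Of 36 ribosome biogenesis genes none was called, where 9.72% of all tested genes were called in either direction. The median of these genes was −0.01, that of all tested genes. *Polr1d*, an RNA polymerase I and III subunit, was at 0.44 ± 0.19 and *Wdr12*, an assembly factor of the large subunit, at 0.39 ± 0.17 (log2, SE). Of 17 genes of mTORC1, Myc and Larp1 control none was called, with a median of −0.18 with TMM, −0.36 with library size only and 0.06 with the GC content and length offset. *Mtor* itself had a log2 fold change of −0.75 ± 0.29 (SE, edgeR adjusted p = 0.104), with 38.2 and 42.3 CPM in vehicle mice 1 and 7 and 73.5 to 102 CPM in the other vehicle mice. The low *Mtor* mice of the vehicle group were thus those high for *Rps7*. *Rptor*, its partner in mTORC1, was at −0.41 ± 0.18 (SE), which became 0.08 with the GC content and length offset.

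Other groups of housekeeping genes were compared in the same way. Of 76 mitochondrial ribosomal protein genes, whose products translate the mitochondrial genome, 1 was called higher (*Mrpl1*, 0.69 ± 0.20 SE, edgeR adjusted p = 0.0460). The median of these 76 genes was 0.33 with TMM, 0.11 with library size only and 0.23 with the GC content and length offset. Of 69 short nuclear respiratory chain transcripts, 5 were called higher. This count is near the 5.04% of all tested genes that were called higher. The median over the list was 0.50 with TMM, 0.28 with library size only and 0.32 with the GC content and length offset. Among the 5 was *Ndufb10* of complex I, at 89.6 ± 10.9 CPM with vehicle and 131 ± 16.9 CPM with INT-767 (SD; 0.55 ± 0.14 SE, edgeR adjusted p = 0.0292). *Ndufb6*, *Ndufa8* and *Atp5c1* were called as well. With library size only, none of the genes of the other lists was called higher, where 2.39% of all tested genes were. Of the 318 tested genes of these lists, 20 were called higher with the GC content and length offset (7.8% of all tested genes). The count was 45 with DESeq2 (10.4%) and 52 with limma-voom and sample weights (11.9%). In both lists vehicle mice 1 and 7 had the highest summed levels of the vehicle group, 12834 and 11696 CPM for the respiratory chain, and treated mice 2 and 4 the highest of all, 16750 and 18319 CPM. Of 34 proteasome genes none was called, with a median of 0.11 with TMM and −0.10 with library size only, above that of all tested genes in both (−0.01 and −0.22), and of −0.18 with the GC content and length offset, below that of all tested genes (0.01). In the TMM fit *Psmd1* and *Psmd2*, the large subunits of its base, were at −0.38 ± 0.14 and −0.61 ± 0.25 (SE).

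The 7 ribosomal proteins, paralogs and ribosome-bound proteins outside the naming rule had a median log2 fold change of 0.38. None was called, where 9.72% of all tested genes were. *Fau*, a ubiquitin-like protein fused to a small-subunit protein, was at 104 ± 14.5 CPM with vehicle and 136 ± 29.9 CPM with INT-767 (SD; 0.38 ± 0.16 SE).

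Other measures were compared between the groups and with these mice. Mitochondrially encoded genes took 4.27% ± 0.79 of counts with vehicle and 5.88% ± 1.12 with INT-767 (SD), with the highest values in treated mice 2 and 4 (6.87% and 6.63%) and vehicle mouse 1 (5.74%). Vehicle mouse 7 stood at 4.71%, below treated mouse 1 (5.59%). Hepatocyte markers identified the tissue, with 6 of 6 tested and none at 0. Their sum, led by *Alb*, was 58725 ± 4889 CPM with vehicle and 83647 ± 17964 CPM with INT-767 (SD), but treated mouse 4, highest for the members, stood at 59360 CPM. The 6 hepatocyte markers had a median log2 fold change of 0.48, with none called, where 9.72% of all tested genes were.

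Of 6 stellate cell and myofibroblast markers, 2 were called lower, where 4.68% of all tested genes were. These were *Col1a1* (−2.96 ± 0.74 SE, edgeR adjusted p = 0.0297) and *Pdgfrb* (−1.31 ± 0.33 SE), and no marker was at 0. The sum of the 6 markers, led by *Col3a1*, was 331, 302, 492, 517, 959, 820 and 289 CPM with vehicle and 178, 92.6, 194 and 276 CPM with INT-767. It was lowest of the vehicle group in mice 7, 2 and 1, and highest in mouse 5, which was the lowest vehicle mouse for most ribosomal protein genes. Macrophage markers were called lower in 2 of 6 genes, where 4.68% of all tested genes were, and none was at 0. The 2 were *Csf1r* and *Cd68* (log2 −1.14 ± 0.19 and −1.16 ± 0.22 SE). Of the 6 macrophage markers, 5 had a log2 fold change below 0 and 1 had one above 0 (0.53). Their sum, led by *Lyz2*, was between 574 and 918 CPM with vehicle and 414, 475, 396 and 1049 CPM with INT-767, so that treated mouse 4, highest for the members, was also the highest of all mice here, while the other treated mice were below every vehicle mouse.

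Cholangiocyte markers were called lower in 1 of 6 genes (*Cldn4*, −1.29 ± 0.31 SE), where 4.68% of all tested genes were. Their sum, led by *Spp1*, was highest in vehicle mice 1 and 7 and treated mouse 4, at 1932, 1504 and 1357 CPM. Of 6 sinusoidal endothelial and 6 lymphocyte markers none was called, with a summed level of 160 ± 49.5 CPM with vehicle and 120 ± 31.4 CPM with INT-767 (SD) for endothelium, led by *Stab2*. No marker of these lists was at 0 in all mice. In whole liver, fewer cells of a type and less RNA per cell cannot be told apart. The part of these cell types and of mitochondrial content in the ribosomal protein values was not tested.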

How the data were processed

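Per the labels and the study's methods, the authors prepared stranded poly(A) libraries, sequenced them for 75 cycles on a NextSeq 500 and aligned reads with STAR (2.4.0 in the submitters' processing notes, another release in the study's methods) to GRCm38 with Ensembl release 84. The deposited values are unnormalized read counts per gene for 11 mice. Neither the counting program nor its strand setting is given in the sources used here.

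Members and gene lists were chosen with earlier results of these data known. Genes were kept by filterByExpr (minimum count 10, minimum total 15) and tested with edgeR 4.0.16 in R 4.3.3 (TMM, robust glmQLFit, glmQLFTest, treatment only, Benjamini-Hochberg, threshold 0.05), checked on simulated data. Standard errors derive from the fold change and the F statistic. CPM use TMM factors. Limits for a count of 0 are 3 counts per library, without TMM factors, and take only counting error into account. Whether mice were processed together is not stated, so p-values measure the spread between these mice.

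Lengths, exons, GC content and windows of 75 bases came from GENCODE M21 (GRCm38) by Ensembl identifier, with 1 transcript per gene. Named were the 3 largest and 3 smallest fold changes and the 3 highest levels per kilobase of each subunit, stalk proteins, *Rpsa*, paralogs with parents, reference genes, and of each list up to 4 called genes or else the 2 with the lowest p.

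Alternatives were RLE, upper-quartile and no factors, TMM without members, library size without the 10 most abundant genes, a GC content and length offset (lowess, span 0.3), 2 other filters, thinning to 7381211 counts, a replicate block, leaving out each mouse, limma-voom (3.58.1) with and without weights per sample, a threshold of 0.01 and DESeq2 1.42.0. The term for the length trend and the splits by its sign were added after seeing the data. Some genes are not reported here by name, although counts and medians include them.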

Additional observations from a re-analysis of the deposited data

How the results depend on the processing

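With the replicate block, the mouse's number as a term, 0 genes were called higher and 0 lower, no member was called, and the log2 fold changes of Rpl6 and Rps4x were −0.011 and −0.11. The numbers 1 to 4 share no stated animal or batch, and the correlations of same-numbered mice's deviations from their group means were −0.73, 0.24, 0.21 and −0.52, so that the numbers do not pair the mice. INT-767–treated mice 1 to 4 correlated best with vehicle mice 5, 1, 5 and 1.

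Over all genes, called higher were 332 with library size only, 315 with library size without the 10 most abundant genes, 1079 with the offset, 1658 with sample weights, 1443 with DESeq2, 130 in mice with a negative length trend and 158 at a threshold of 0.01, against 700. Called lower, against 649, were 1026, 1214, 1219 (sample weights), 1368 (DESeq2), 94 (negative trend) and 87 (threshold). Leaving out 1 mouse gave 164 to 1906 higher and 110 to 1370 lower, lowest without treated mouse 2 and highest without vehicle mouse 1.

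Members called higher, 0 and 0 by subunit, became 1 large and 1 small with the offset, 14 and 9 with sample weights and 9 and 3 with DESeq2. Of all tested genes, 7.80%, 11.9% and 10.4% were called higher there. In mice with a positive trend 8 and 4 were called, where 5.96% of all genes were. That split itself narrows the vehicle range of members such as Rps7, and its counts support nothing. Leaving out 1 mouse gave 0 to 14 large and 0 to 10 small members, where 1.14% to 13.7% of all genes were called higher. The medians of both subunits, 0.37, became 0.15 with library size only and 0.12 also without the 10 most abundant genes. They were 0.19 (large) and 0.15 (small) with the offset, and 0.14 and 0.10 in mice with a negative trend. Leaving out 1 mouse gave a members' median between 0.27 and 0.44. It gave 0.28 to 0.43 for the large and 0.24 to 0.44 for the small subunit, each lowest without treated mouse 4.

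Fold changes near 0 changed sign. The median of all tested genes was −0.01 with TMM, −0.22 with library size only and −0.25 also without the 10 most abundant genes. With library size only these fold changes were −0.17 (Rpl18), −0.15 (Rpl36a), −0.16 (Rpl6), −0.0064 (Rplp2), −0.096 (Rps2) and −0.17 (Rps4x). Without the 10 most abundant genes in the library size they were −0.20, −0.18, −0.19, −0.037, −0.13 and −0.20. For Rpl18, Rpl36a, Rpl6 and Rps4x they were −0.041, −0.023, −0.041 and −0.059 with upper-quartile factors, −0.097, −0.28, −0.051 and −0.18 with the offset, −0.023, −0.00030, −0.023 and −0.043 with 10 counts in every mouse, and −0.013, −0.0089, −0.0026 and −0.026 after thinning. In mice with a negative trend Rpl36a, Rpl6 and Rps4x were at −0.17, −0.14 and −0.19, Rpl36a was at −0.039 with a term for the trend, Rps4x at −0.071 with limma-voom, and Rps28 at 0.027 in mice with a positive trend. Leaving out 1 mouse gave −0.0030 to 0.070 for Rpl18, −0.074 to 0.12 for Rpl6 and −0.19 to 0.24 for Rps4x. Rptor was at 0.075 with the offset, and Rpl9-ps6, with 116 counts in all, at 0.36 after thinning and between −0.48 and 0.19 without 1 mouse.

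Of the 318 tested genes of the other lists, called higher against 7 were 0 with library size only and without the 10 most abundant genes, 1 with upper-quartile factors, 20 with the offset, 3 without a filter, 4 with 10 counts in every mouse, 4 after thinning, 0 with the replicate block, 52 with sample weights, 45 with DESeq2, 21 and 0 in mice with a positive and a negative trend, and 0 at the threshold of 0.01. Called lower against 5 were 11, 14 (without the 10 most abundant), 8 (upper quartile), 0 (replicate block), 12 (sample weights), 10 (DESeq2), 9 and 0 (positive and negative trend) and 2 (threshold). Over all tested genes 5.04% were called higher and 4.68% lower with TMM. Leaving out 1 mouse gave 0 to 67 and 2 to 10 genes of the other lists. Their median of 0.23 became 0.019 with library size only and −0.013 without the 10 most abundant genes. The cause of these changes was not tested. At the depth of these libraries 4 members had too few counts to be tested, and with 4 and 7 mice their number limits the precision of every other comparison.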
